A study of Mus musculus with 11 samples.

Results

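The genes described here code for subunits and assembly factors of respiratory complex I, the NADH:ubiquinone oxidoreductase of the inner mitochondrial membrane. They are all genes whose official symbol begins with Nduf and that the mouse arrays measured with a probe set of exactly 1 gene symbol. This rule, which uses names alone, gave 44 of the 18194 genes tested. By role they are 6 core subunits, 28 accessory subunits, 8 assembly factors with Ndufaf symbols, and 2 proteins, Ndufa4 and Ndufa4l2, now assigned to complex IV. The accessory subunits Ndufs6 and Ndufa11 and the 7 complex I subunits coded by mitochondrial DNA are not analysed here.

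Total RNA of the left ventricle of C57BL/6 mice was hybridised to 11 arrays in 4 groups, and the labels call the arrays of a group biological replicates. The transgenic adult group held 3 arrays, the control adult group 3, the transgenic newborn group 3 and the control newborn group 2. In the HMGN5 transgenic mice the cDNA of mouse Hmgn5 was present at full length with a FLAG tag, driven by the CAG promoter once a floxed LacZ cassette had been removed. Removal was by alphaMHC-cre, a recombinase made in heart muscle cells, so other cells of the ventricle are expected to keep the cassette. HMGN5 is a nucleosome-binding protein that loosens chromatin by opposing linker histone H1. Control mice were labelled wild-type with no cre stated, so effects of the cre and of the Hmgn5 cDNA cannot be told apart. The labels give age only as adult or newborn. The Hmgn5 probe set did not separate the groups. It read 8.29, 8.26 and 8.71 on the transgenic adult arrays against 8.44, 8.77 and 8.52 on the control adult arrays. In newborns it read 8.56, 8.84 and 8.69 against 8.85 and 8.81. It therefore does not check the labels, and whether it reads the transgene's transcript was not tested.

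Complex I takes electrons from NADH and passes them to ubiquinone, and it pumps protons across the inner membrane as it does so. Its L-shaped body has an N module that binds NADH, a Q module that reduces ubiquinone, and a membrane arm that pumps. Core subunits carry the flavin, the iron-sulphur clusters and the proton channels, accessory subunits surround and stabilise the core, and assembly factors help to build the complex and then leave it. The heart depends on oxidative phosphorylation, and its mitochondria increase in number and capacity after birth.

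Values are log2 signals, on which a difference of 1 is a doubling. Differences were tested with limma in a fit over all 11 arrays, and a gene was called when its p-value, adjusted by Benjamini-Hochberg over all 18194 genes, was under 0.05. All adjusted p-values below are from that fit unless another is named. A value is given for each array in the order of the replicate numbers. In such tissue RNA, fewer muscle cells and less of a transcript per cell cannot be told apart. The mean of 8 markers listed for ventricular muscle (Myl2, Myh6 and others) read 13.46 to 13.81 on all 11 arrays, near the highest value on any array, 14.37. It shows heart muscle RNA on every array but does not check that the tissue was ventricle. The atrial muscle gene Myl7 also read 13.25 to 13.52 on newborn arrays.

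The arrays also differed in other features, some of them between arrays of the same group and some between transgenic and control adults. The control probe sets for 18S ribosomal RNA had a mean of 12.18 and 11.89 on replicate 3 of the transgenic and control adults, against 7.64 to 8.58 on the other adult arrays and 10.05 to 10.53 on newborn arrays. The mean of the atrial muscle genes Myl4, Myl7 and Sln was 10.53, 6.59 and 6.52 on transgenic adult arrays, 10.10, 10.38 and 12.24 on control adult arrays, and 12.49 to 12.87 in newborns. These are 3 of 6 atrial markers, of which only Nppa, a natriuretic peptide also made by stressed ventricles, was called in adults, and it was higher: 14.18, 14.05 and 14.06 in transgenic against 12.02, 11.21 and 12.01 in control adults (2.35, adjusted p = 8.4e-05). Ucp1, a brown fat gene, read 7.62 on control adult replicate 3 and 3.43 to 3.91 elsewhere. In adults, fibroblast markers had a median difference of 0.69 between transgenic and control, with 2 of 8 called higher, and their mean ran from 10.43 to 11.01 on transgenic and from 9.33 to 10.36 on control arrays. Macrophage markers had a median difference of 0.68, with 3 of 8 called higher, and their mean ran from 9.01 to 9.81 against 8.80 to 9.11.

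In adult hearts, complex I transcripts lay lower in the transgenic group than in the controls. Of the 44 genes, 4 were called lower and 0 were called higher: the core subunits Ndufs1, Ndufs7 and Ndufv1 and the assembly factor Ndufaf4. These 4 are 9.09% of the genes, where 2.93% of all genes tested were called lower and 4.16% higher. All 44 differences were below 0, from -0.70 to -0.01, with a median of -0.26, while the median over all genes was 0.00. All 3 transgenic arrays lay below all 3 control arrays for 18 of the 44 genes (40.9%, against 7.94% of all genes), and they lay above them for 0 genes (against 10% of all genes). An unadjusted p under 0.05 with a lower value in transgenic adults was found for 19 genes (43.2%), against 8.96% of all genes. The median signal of the 44 genes was 12.47, 12.49 and 12.35 on the transgenic adult arrays and 12.75, 12.78 and 12.58 on the control adult arrays, so replicate 3 was the lowest of each group.

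**Figure D1:**
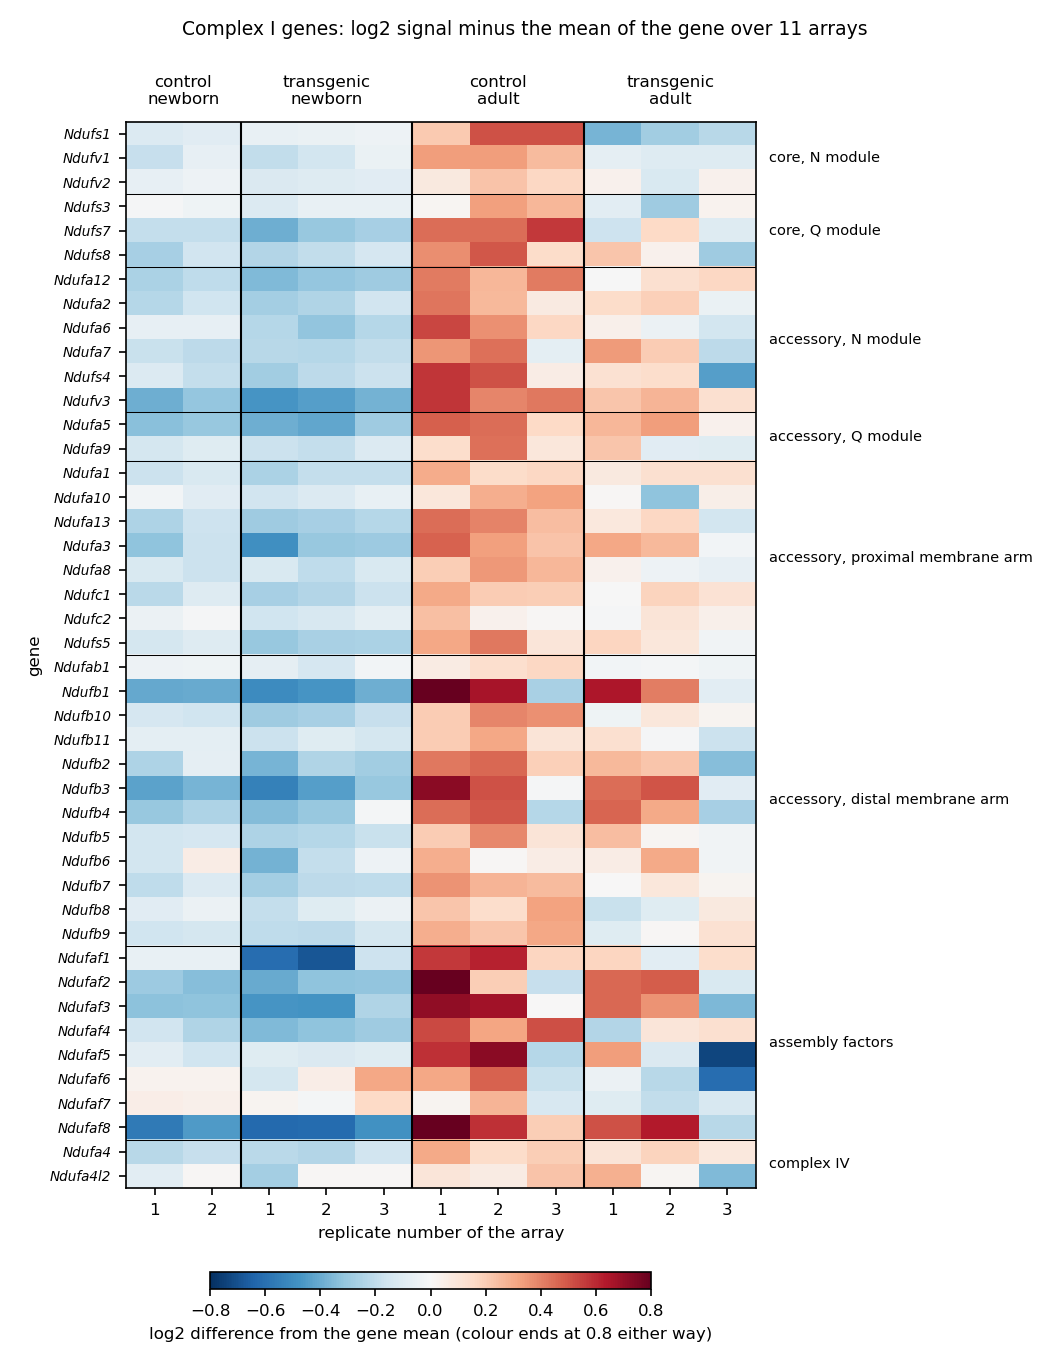
Log2 signal of each of the 44 genes on each of the 11 arrays, minus the mean of that gene over all arrays, with columns for arrays by group and replicate number and genes ordered by role. Control adult columns hold most of the red (higher) cells and newborn columns most of the blue (lower) ones, and the transgenic adult columns lie between them, with Ndufs1 lowest in transgenic adults.

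Among the core subunits of the N module, Ndufs1 differed most. Ndufs1 is the largest iron-sulphur subunit and carries electrons away from the flavin. It read 12.12, 12.42 and 12.42 in control adults and 11.54, 11.63 and 11.69 in transgenic adults. The groups did not overlap, and every transgenic adult array also lay below all 5 newborn arrays, which read 11.80 to 11.87. Its mean fell from 12.32 ± 0.17 (SD, n = 3) to 11.62 ± 0.08 (SD, n = 3), a difference of -0.70 (SE 0.11, 95% interval -0.94 to -0.46, limma adjusted p = 0.00349). On the linear scale it fell by 38.4%. Ndufv1, which binds NADH and the flavin, read 13.24, 13.24 and 13.16 in control adults and 12.83, 12.80 and 12.80 in transgenic adults. Its spread within each group was small beside the gap, and it fell by 0.40 (SE 0.09, adjusted p = 0.0243). Ndufv2, the small iron-sulphur partner of Ndufv1, read 13.07, 13.22 and 13.16 against 13.03, 12.87 and 13.03, and its difference of -0.18 did not pass (adjusted p = 0.355).

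In the Q module, Ndufs7, which holds the last iron-sulphur cluster before ubiquinone, was called. Its control adult arrays read 12.89, 12.89 and 13.01 and its transgenic adult arrays 12.28, 12.60 and 12.34. No transgenic array reached a control array. Its mean fell from 12.93 ± 0.07 to 12.41 ± 0.17 (SD, n = 3 each), by 0.53 on the log2 scale (SE 0.11, adjusted p = 0.0155). The other Q-module core genes did not pass. Ndufs8, which carries a pair of iron-sulphur clusters, read 13.06, 13.18 and 12.83 in controls and 12.91, 12.72 and 12.40 in transgenic hearts (-0.35, adjusted p = 0.189), and here the groups overlapped. Ndufs3, a subunit without a cluster beside the quinone site, read 12.33, 12.64 and 12.58 against 12.23, 12.03 and 12.34 (-0.31, adjusted p = 0.154). Over the 6 core genes 3 were called lower, with a median of -0.38.

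**Figure D2:**
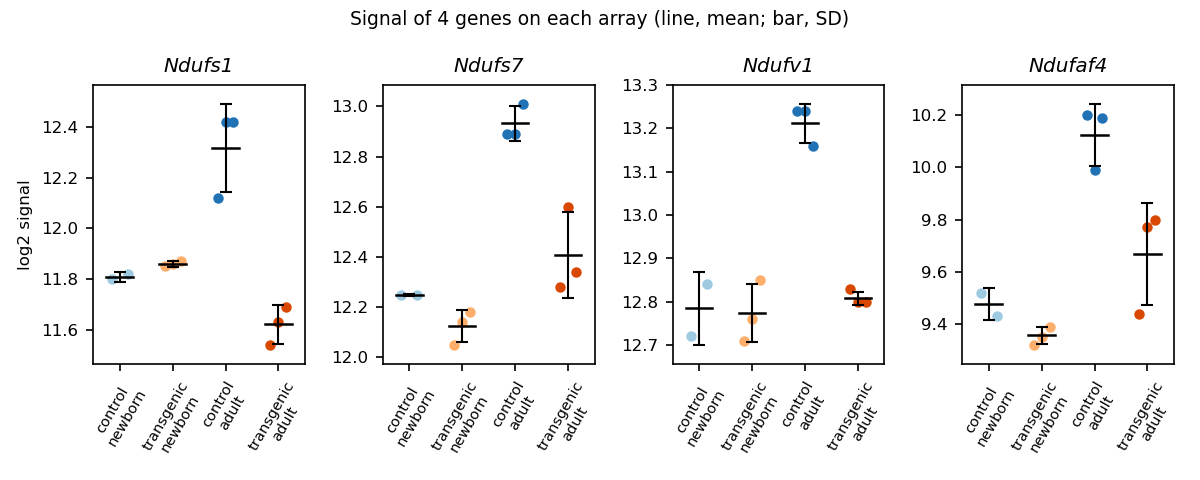
Log2 signal of Ndufs1, Ndufs7, Ndufv1 and Ndufaf4, the 4 genes called in adults, on each array (points) by group, with the group mean (line) and SD (bar). The axes differ between panels and do not start at 0. Control adult arrays stand above the others in each panel, and Ndufs1 in transgenic adults (11.54 to 11.69) lies below the newborn arrays.

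Of the 28 accessory subunits 0 were called in adults under limma, and 11 had an unadjusted p under 0.05, all lower in transgenic hearts (median difference -0.20 over the 28). The smallest adjusted p among them belonged to Ndufa6, an LYR-motif subunit on the peripheral arm. It read 12.96, 12.79 and 12.59 in controls and 12.47, 12.38 and 12.28 in transgenic hearts, without overlap (-0.40, SE 0.11, adjusted p = 0.0606). Ndufa8, a membrane-arm subunit facing the intermembrane space, differed by -0.29 (adjusted p = 0.0943). With the 4 called genes, these were the 6 genes with an adjusted p under 0.1. Ndufs4, which is needed for a stable N module, differed by -0.44 with more spread: its control arrays read 11.86, 11.80 and 11.35 and its transgenic arrays 11.41, 11.43 and 10.85 (SE 0.18, adjusted p = 0.184). At the other end Ndufb6 differed by -0.01 (SE 0.14). The single-symbol probe set of Ndufb4 read only 3.32 to 4.08 in adults, below the array medians of 5.12 to 5.18, so its value says little about that gene.

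Among the assembly factors, Ndufaf4 was called. It works with Ndufaf3 on an early intermediate that holds part of the Q module. It read 10.20, 9.99 and 10.19 in control adults and 9.44, 9.77 and 9.80 in transgenic adults, without overlap, and fell by 0.45 (SE 0.12, adjusted p = 0.0437). Ndufaf3 itself read 10.17, 10.13 and 9.46 against 9.92, 9.82 and 9.10, with overlap (-0.30, adjusted p = 0.551). Replicate 3, the pair with high 18S signal, was the lowest array of each group for that gene. Ndufaf5, a hydroxylase that acts on Ndufs7, read 8.75, 8.89 and 7.94 in controls and 8.50, 8.05 and 7.43 in transgenic hearts. Its difference of -0.53 equalled that of Ndufs7 in size, but its SE of 0.27 was larger, and it did not pass (adjusted p = 0.322). Ndufaf6 differed by -0.49 (adjusted p = 0.180) and Ndufaf1, a factor for the membrane arm, by -0.37 (adjusted p = 0.229). Ndufaf8, a partner of Ndufaf5, differed by -0.30 (adjusted p = 0.574), Ndufaf7, a methyltransferase, by -0.19 (adjusted p = 0.423), and Ndufaf2, which acts late in assembly, by -0.01 (adjusted p = 0.992). The 8 factors had a median of -0.34, with 1 called lower. The complex IV proteins did not pass either: Ndufa4 differed by -0.10 (adjusted p = 0.664) and its paralogue Ndufa4l2 by -0.15 (adjusted p = 0.705).

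**Figure D3:**
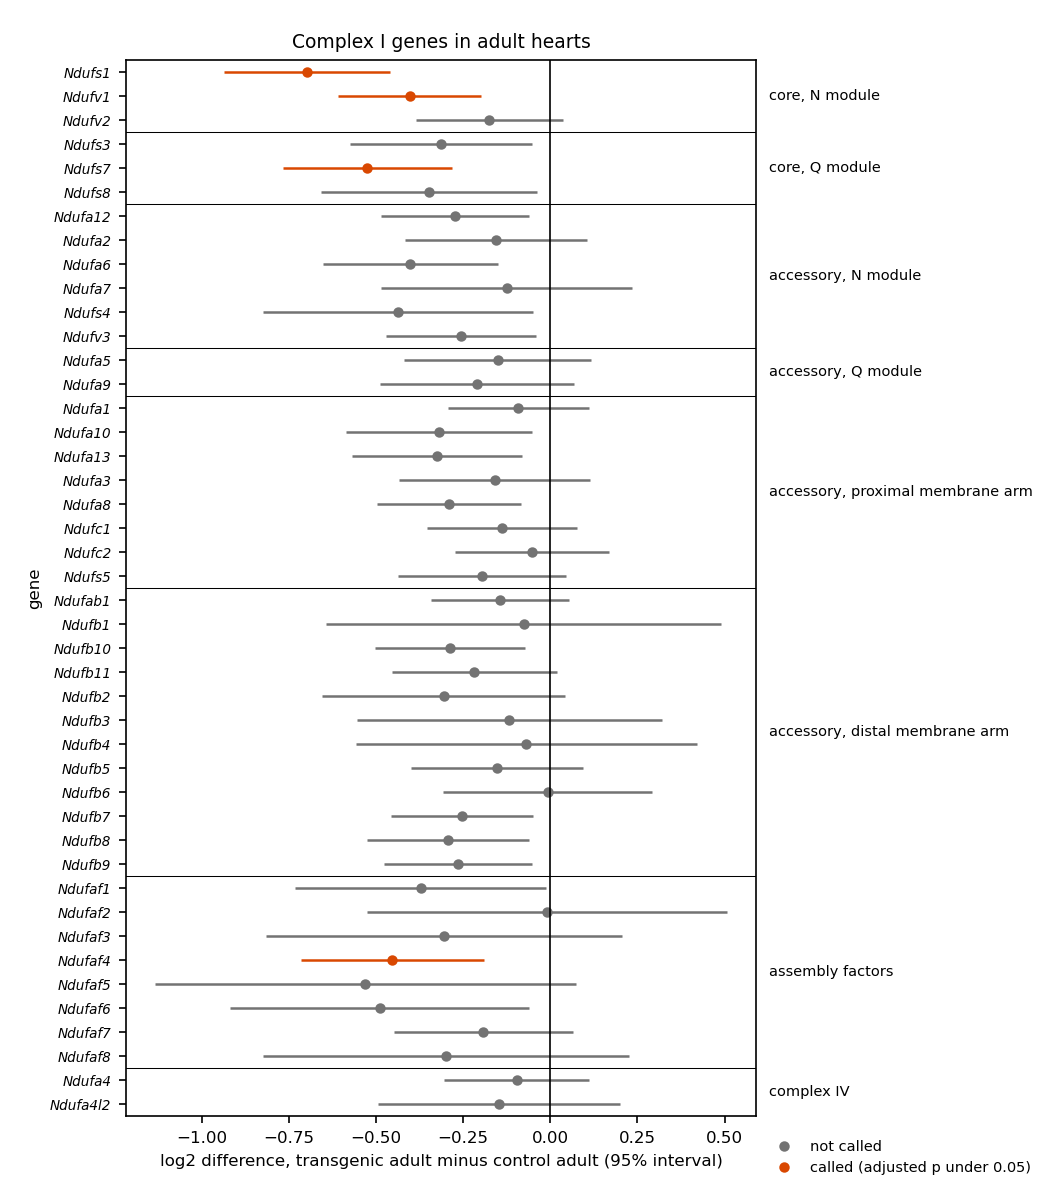
Log2 difference between transgenic and control adults for each of the 44 genes with its 95% interval, ordered by role. All 44 points lie left of 0, and the 4 called genes (orange) are Ndufs1 at -0.70, Ndufs7 at -0.53, Ndufaf4 at -0.45 and Ndufv1 at -0.40.

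These adult differences were set beside the array features given above. In the pair of adult arrays with high 18S signal, 1 of each group, 40 of 44 genes were lower in the transgenic array (median -0.24). In the other adult arrays, 2 of each group, 42 of 44 were lower (median -0.24). Ndufs1 differed by -0.73 and -0.68 in these sets, Ndufs7 by -0.67 and -0.45, Ndufv1 by -0.36 and -0.43, and Ndufaf4 by -0.39 and -0.49. Taking the pair as a factor gave 10 calls and leaving it out gave 7, while the share of all genes called lower also went up, from 2.93% to 6.45% and 4.59%. Transgenic adult replicate 1, whose atrial gene mean of 10.53 lay within the control range, had the lowest Ndufs1 value of all arrays, 11.54. With the atrial gene mean as a covariate Ndufs1 differed by -0.72 (adjusted p = 0.0684) and 0 genes were called, and a fit of the adult arrays alone also called 0 (Ndufs1 adjusted p = 0.0579, with 0.643% of all genes called lower). Without transgenic adult replicate 1 only Ndufs1 was called, and without transgenic replicate 2 or control replicate 2, 2 genes were. The share of all genes called with the atrial covariate or without 1 array is not given here. Those counts therefore cannot be set beside that of all genes. Beside the higher fibroblast and macrophage markers, the ventricular muscle markers had 0 of 8 called by limma, 1 with an unadjusted p under 0.05 and a median difference of -0.15. The part of these cell types in the result was not tested.

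Other probe sets gave a second reading for some genes. A single-symbol probe set was the only one for 22 of the 44 genes, and the other 22 genes had 44 further probe sets, of which 42 were lower in transgenic adults and 4 were called lower in a fit over probe sets. The share of all probe sets called lower in that fit is not given here. The second probe set of Ndufaf4 went from 9.16 in control to 8.10 in transgenic adults, a fall of 1.06 (adjusted p = 0.00968), against 0.45 for the brighter probe set (adjusted p = 0.0583 in the same fit). In the same fit the second probe set of Ndufs7 differed by -0.50 (adjusted p = 0.0805). The further probe sets of Ndufv1 differed by -0.49 and -0.45 (adjusted p = 0.0202 and 0.127). For Ndufab1, the acyl carrier protein of mitochondria and a subunit of the complex, the probe set used differed by -0.14. A pair of much dimmer probe sets fell by 0.84 and 1.17 (adjusted p = 0.0187 and 0.0131). They went from 6.63 to 5.8 and from 5.41 to 4.24. The last value lies below the array medians of 5.12 to 5.18, so that fall says little about the gene. Probe sets that share several Ndufb4 symbols read 12.78 and 12.77 in control adults, with differences of -0.26 and -0.21.

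Promoter sequences were read to show which sites of known regulators of mitochondrial genes lie near the starts of these genes. RefSeq promoters of GRCm38.p6, from 250 bases before to 50 bases after the start, were found for 39 of the 44 genes, as 41 promoters; Ndufa2, Ndufa4l2, Ndufaf6, Ndufb9 and Ndufs1 had no entry. The YY1 motif AAGATGGC was present on either strand in 7 of the 41 promoters (17.1%), against 3.38% of 18110 mouse promoters. All 7 matches read along the gene and began 11 to 39 bases inside it, whereas 39.7% of 633 matches in all promoters read along the gene after its start. The NRF1 motif, which is the part in capitals in the Ndufaf4 window below, was present in 2 of 41 (4.9%, against 1.54% of all), and its looser form, GCGC on either side of any pair of middle bases, which includes it, in 10 (24.4%, against 9.9%). The half-site of the oestrogen-related receptors, AAGGTCA, was present in 3 (7.3%, against 3.92%) and the longer TCAAGGTCA in 0 (against 0.34%). The ETS motif CCGGAAG of GABP was present in 14.6% of the 41 promoters (against 13%) and CCAAT in 31.7% (against 37.37%). A match describes letters and is no evidence of binding. The YY1 motif holds the letters ATG, so a match inside the gene can also be the start codon of its protein. How many of the 7 are start codons was not tested. Windows are shown for the called genes Ndufs7 and Ndufaf4 and, for comparison, for 3 genes with the same motifs, written 5′ to 3′ along the gene with the motif in capitals. The Ndufs7 window lies at chr10:80249463-80249490 on the plus strand and its motif starts 25 bases into the gene. The Ndufaf4 window lies at chr4:24897960-24897989 on the plus strand, 113 bases before the start. The Ndufaf8 window is chr11:120098934-120098961 (plus), that of Ndufs4 chr13:114388045-114388069 (minus) and that of Ndufaf5 chr2:140170652-140170681 (plus).
Ndufs7: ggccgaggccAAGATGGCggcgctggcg
Ndufaf8: ggcagggcccAAGATGGCggcgccctcg
Ndufs4: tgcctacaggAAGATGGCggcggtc
Ndufaf4: ccagatgtctGCGCATGCGCctgtgcggaa
Ndufaf5: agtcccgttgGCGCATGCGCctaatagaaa
Of these 5 genes, Ndufs7 and Ndufaf4 were called in adults and Ndufs4, Ndufaf5 and Ndufaf8 were not, so both motifs occur in called and in uncalled genes.

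In newborn hearts 0 of the 44 genes were called by limma between transgenic and control, and 0% of all genes were. The differences ran from -0.43 to 0.05 with a median of -0.05, and 37 of 44 were below 0. Spread was small at this age: the median SD of the 44 genes was 0.03 in control and 0.05 in transgenic newborns, against 0.14 and 0.15 in the adult groups. Both control arrays lay above all 3 transgenic arrays for 13 genes (29.5%, against 9.83% of all genes), and below them for 1, Ndufs1 (2.27%, against 11.1%). Only Ndufaf1 had an unadjusted p under 0.05 (0.0369), as did 1.09% of all genes. It read 9.21 on both control arrays and 8.66, 8.58 and 9.10 on the transgenic ones, so replicate 3 lay much nearer the controls, and the difference was -0.43 (SE 0.18, 95% interval -0.84 to -0.03). The next smallest p-values were those of Ndufa6 (-0.19) and Ndufs5 (-0.15), a small subunit of the proximal membrane arm. Ndufs1 read 11.85, 11.86 and 11.87 in transgenic and 11.80 and 11.82 in control newborns, a difference of 0.05 (SE 0.12).

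Whether the transgenic effect differed between the ages was tested as the adult difference minus the newborn difference. Of the 44 genes 0 were called by limma, where 0.242% of all genes were called in the negative and 0.445% in the positive direction. This difference of effects was below 0 for 40 of 44 genes, with a median of -0.18, and had an unadjusted p under 0.05 for 3 (6.82%, all negative, against 4.46% of all genes in that direction). Ndufs1 had the smallest p of the 44, at -0.75 (SE 0.16, 95% interval -1.11 to -0.39, adjusted p = 0.0735). Ndufv1 followed at -0.39 (adjusted p = 0.319) and Ndufs7 at -0.40 (adjusted p = 0.428). A difference of the effects between ages was therefore not called for any complex I gene, although adults had calls and newborns had 0. Ndufs1 was called with the high-18S pair as a factor (adjusted p = 0.0266) and without that pair (adjusted p = 0.0396). It was also called without transgenic adult replicate 3 (adjusted p = 0.0357) and without control adult replicate 1 (adjusted p = 0.0270).

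Between newborn and adult control hearts, complex I transcripts rose. Of the 44 genes 25 were called higher in adults (56.8%, against 14.9% of all genes) and 0 were called lower (against 18.1%, with 33% of all genes called in either direction). All 44 differences were above 0, with a median of 0.44 against 0.09 over all genes, and the groups did not overlap for 40 genes (against 35.1% of all genes in that direction). The exceptions were Ndufb6, Ndufaf5, Ndufaf6 and Ndufaf7. By role, 4 of 6 core, 17 of 28 accessory and 3 of 8 assembly genes rose, and Ndufa4 did. Newborn 18S signals lay between those of the adult sets, and whether the arrays of both ages were processed together is not given in the sources used here. With all arrays set to a common median the age differences shifted by 0.17 for all genes, to a median of 0.61 for these 44, and 32.3% of all genes were then called higher and 13.9% lower.

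Ndufaf8 had the largest rise with age. It read 9.86 and 9.97 in control newborns and 11.46, 11.01 and 10.62 in control adults, a rise of 1.11 (SE 0.27, adjusted p = 0.00896). Every adult array was above both newborn arrays, with a wide spread among adults. Ndufv3, an N-module accessory subunit known for tissue-specific isoforms, went from 12.57 and 12.65 to 13.53, 13.35 and 13.38, a rise of 0.81 (SE 0.11, adjusted p = 0.000292). Ndufb3, a small subunit of the distal membrane arm, rose by 0.80 (adjusted p = 0.0183) and Ndufaf3 by 0.79 (adjusted p = 0.0385). Ndufs7 went from 12.25 on both newborn arrays to a mean of 12.93 in adults and rose by 0.69 (adjusted p = 0.00172). Ndufa5, a Q-module accessory subunit, rose by 0.68 (adjusted p = 0.00329), Ndufaf4 by 0.65 (adjusted p = 0.00388) and Ndufa12, a paralogue of Ndufaf2 that takes its place in the finished complex, by 0.60 (adjusted p = 0.00179). The count of 25 became 16 without control adult replicate 1 and 32 without control adult replicate 3. It rests on 2 control newborn arrays, and no count is given without either of them, since that group would then have no spread. The share of all genes called in these fits is not given here.

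In transgenic hearts the rise with age was called for fewer genes. There 14 of 44 genes were called higher in adults than in newborns (31.8%, against 19.7% of all genes) and 0 lower (against 19.7%), with a median difference of 0.29. The 3 adult arrays lay above all newborn arrays for 26 genes (against 30% of all genes) and below them for 2 (against 24.7%). The age difference was smaller in transgenic than in control hearts for 40 of 44 genes, a count that rests on the same adult differences given above and was not tested as a group. Both age comparisons called 12 genes, the control comparison alone 13 and the transgenic one alone Ndufb1 and Ndufaf1. The largest rises were those of Ndufaf8 (0.88, adjusted p = 0.0142), Ndufb1 (0.78, adjusted p = 0.0341), Ndufb3 (0.71, adjusted p = 0.0164) and Ndufv3 (0.63, adjusted p = 0.000628). Ndufa5 and Ndufaf1 each rose by 0.57 (adjusted p = 0.00411 and 0.0194), Ndufa3, of the proximal membrane arm, by 0.54 (adjusted p = 0.00623) and Ndufa12 by 0.41 (adjusted p = 0.00732). Accessory subunits made up 11 of the 14, and 0 of the 6 core genes were called by limma (1 had an unadjusted p under 0.05), with a core median of 0.06 against 0.47 in controls. Ndufv1 read 12.71, 12.76 and 12.85 in transgenic newborns and 12.83, 12.80 and 12.80 in transgenic adults, a difference of 0.03 (adjusted p = 0.787), against 0.43 in controls (adjusted p = 0.00982). Ndufs1 rose by 0.51 in controls (adjusted p = 0.00903) and differed by -0.24 in transgenic hearts (adjusted p = 0.101), where all 3 adult arrays lay below all 3 newborn ones. Ndufaf7 was the only other gene with that order. The count of 14 moved to 9 without transgenic adult replicate 1, 6 without transgenic adult replicate 2, 5 without transgenic newborn replicate 1, 7 without transgenic newborn replicate 2 and 25 without the high-18S pair, where 29% of all genes were called higher. With a common array median 30 were called, and 35.8% of all genes were then called higher and 15.4% lower. With the atrial gene mean as a covariate 0 were called, and in controls 16. That covariate read 6.52 to 10.53 on transgenic adult and 12.49 to 12.87 on newborn arrays. It therefore cannot be separated well from age in that fit. The share of all genes called with it or without 1 array is not given here.

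**Figure D4:**
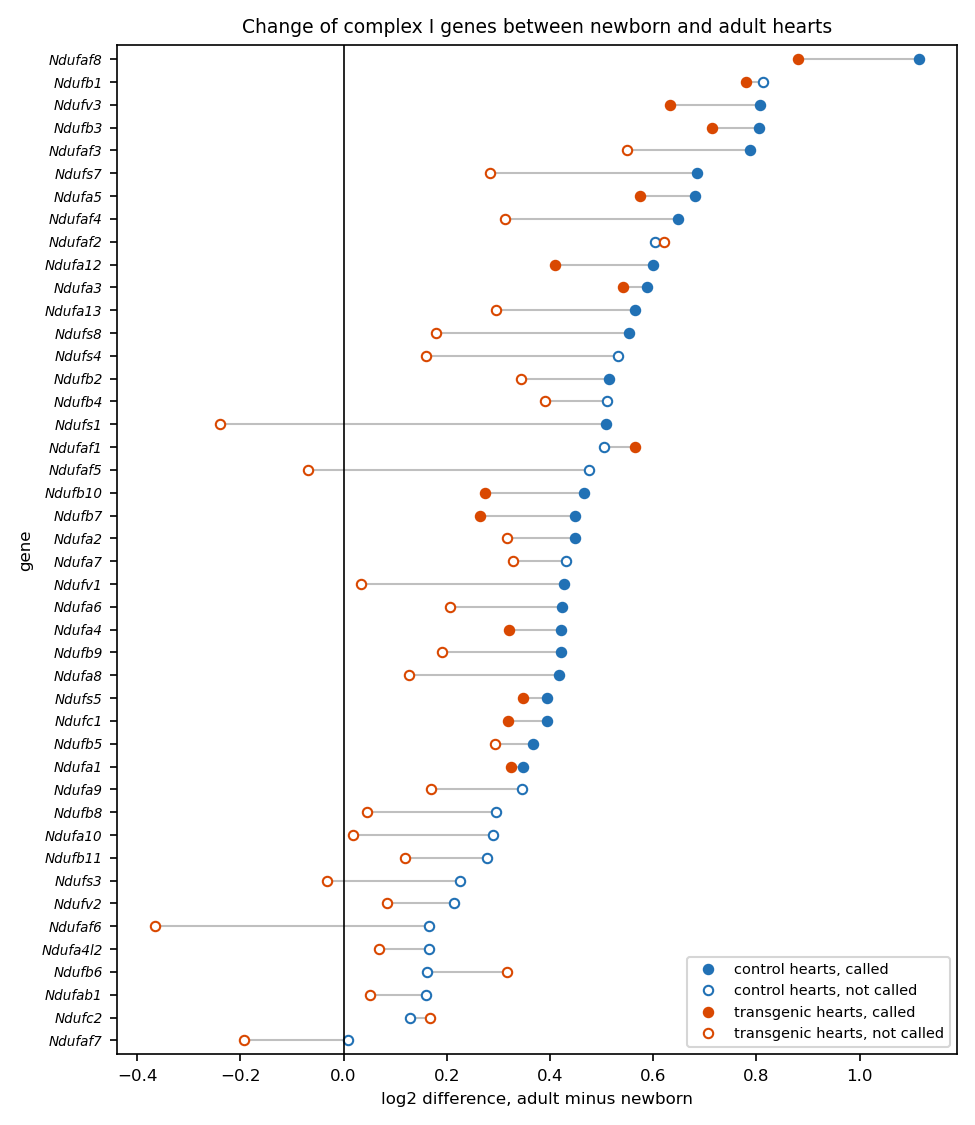
Log2 difference between adult and newborn hearts for each of the 44 genes in control (blue) and transgenic (orange) hearts, filled where called, sorted by the control value. All blue points lie above 0 and 40 of 44 orange points lie left of the blue ones, with the gap for Ndufs1 (0.51 and -0.24) the widest.

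Other genes that act in building complex I were examined in the same adult comparison. Of 13 other complex I assembly genes measured, 4 were called lower and 0 higher, with a median of -0.39, beside 2.93% of all genes called lower and 4.16% higher. Tmem186, a membrane protein of the Ndufaf1 assembly complex, fell by 0.90 (SE 0.15, adjusted p = 0.00560), from 6.63, 6.64 and 6.52 to 5.73, 6.02 and 5.35. Tmem70, which acts in the assembly of complex I and of ATP synthase, fell by 0.65 (adjusted p = 0.00717), from 10.12, 10.45 and 10.48 to 9.69, 9.71 and 9.70. Ecsit, a partner of Ndufaf1, fell by 0.64 (adjusted p = 0.0200), and Aifm1, a flavoprotein needed for the import of complex I subunits, by 0.58 (adjusted p = 0.0212). The groups did not overlap for any of these 4 genes. Iron-sulphur cluster assembly genes had 0 of 11 called by limma, 2 with an unadjusted p under 0.05, and a median of -0.06. Among 14 regulators of mitochondrial genes, Ppara, the nuclear receptor for fatty acid oxidation, fell by 1.26 (adjusted p = 0.00983), from 8.21, 8.91 and 8.91 to 7.23, 7.09 and 7.94. The coactivator Ppargc1a differed by -1.58 but read 7.41, 7.98 and 9.90 in transgenic adults against 9.38, 9.81 and 10.81 in controls, with overlap (adjusted p = 0.116).

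The other respiratory complexes also had medians below 0 in adults, and their counts are to be read beside the 2.93% of all genes called lower. Complex II, succinate dehydrogenase, had 1 of 8 genes called lower, Sdha (-0.54, adjusted p = 0.0438), and a median of -0.19. Complex III had 3 of 15 called lower and a median of -0.28: the assembly factors Uqcc1 (-0.88, adjusted p = 0.0379) and Ttc19 (-0.59, adjusted p = 0.0125), and Cyc1, cytochrome c1 (-0.40, adjusted p = 0.0459). Complex IV had 2 of 26 called lower, Cox10, an enzyme of haem A synthesis (-0.53, adjusted p = 0.0408), and the muscle subunit Cox7a1 (-0.51, adjusted p = 0.0309), with a median of -0.10. Complex V, ATP synthase, had 1 of 20 called lower, the assembly factor Atpaf1 (-0.40, adjusted p = 0.0461), and a median of -0.18. None of these lists had a gene called higher in adults, and the medians of complexes II to V in newborns lay between -0.07 and -0.02. Whether complex I differed more than complexes II to V was not tested. With age in control hearts, 4 of 8 genes of complex II, 5 of 15 of complex III, 4 of 26 of complex IV and 6 of 20 of complex V were called higher and 3 of complex IV lower. Without Ndufa4 and Ndufa4l2, 24 of the 42 Nduf genes of complex I were called higher. Over all genes 14.9% were called higher and 18.1% lower, so the share of complex IV genes called higher, 15.4%, was near that of all genes.

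**Figure D5:**
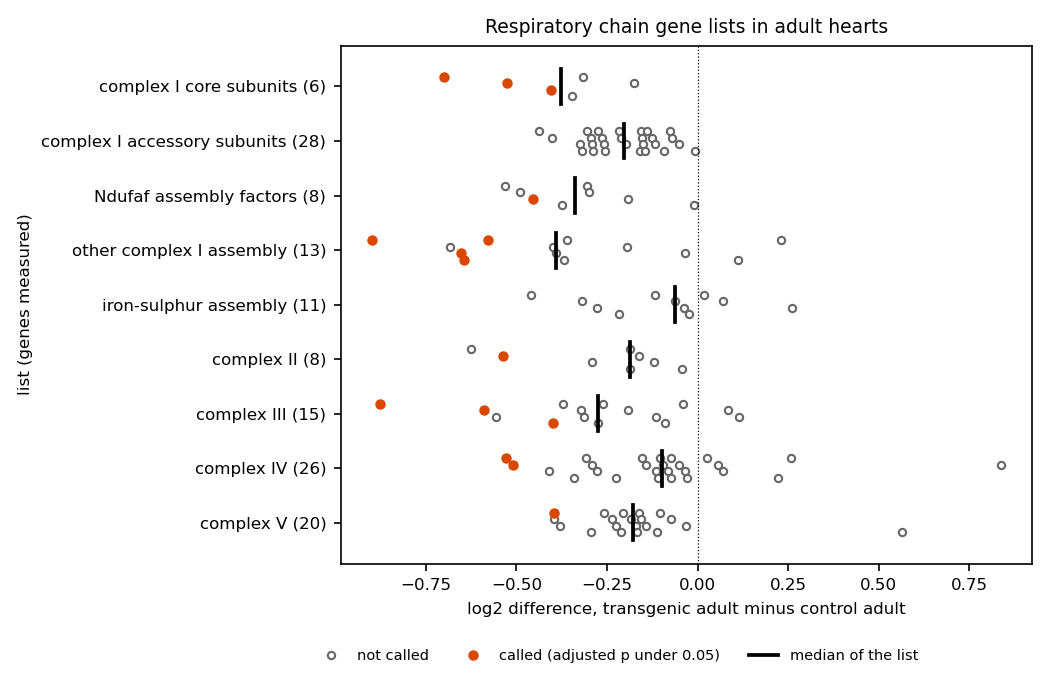
Log2 difference between transgenic and control adults for each gene of 9 respiratory lists (points, orange where called), with the median of each list (bar). The core subunits and the other complex I assembly genes have the lowest medians, -0.38 and -0.39, and all called genes lie left of 0.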

How the data were processed

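The values deposited by the authors are log2 signals of 45101 probe sets per array. The submitters' processing notes name RMA, affy and limma, without versions or roles. Array medians were 5.12 to 5.18, so a shift shared by most transcripts would not be visible. Array data hold no read depth, and the number of arrays limits the precision. Nothing was normalised again for the reported values.

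Of the probe sets, 34958 had 1 gene symbol, 932 several and 9211 none; 34754 of the first matched the RefSeq gene table of GRCm38.p6 by gene ID. A gene was read from its single-symbol probe set with the highest mean over 11 arrays. Group means were fitted with limma 3.58.1 in R 4.3.3 (residual degrees of freedom 7, prior 3.85), 2-sided, and intervals are 95% intervals from that fit. Adult arrays spread more than newborn arrays, and the groups share 1 estimate of spread. The script was tested on simulated data. Figures were drawn with matplotlib 3.10.9.

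The members and lists were chosen with earlier results of these data known. Values are given for core subunits, Ndufaf genes, both complex IV proteins and up to 8 called genes per comparison with the largest change in each direction, or the 3 smallest p-values where fewer than 3 were called, and for up to 3 genes of each other list by p; Ndufa8, Ndufs4, Ndufb6, Ndufb4, Ndufab1, Aifm1 and other names outside this were picked after their values were seen. Promoter motifs were searched on both strands. Same-numbered arrays did not deviate together throughout (correlations over genes of 0.31, -0.06 and 0.45 in adults, 0.18 and -0.15 in newborns), so numbers were not used as pairs. Alternatives were a replicate block, a filter on low values, every probe set, the mean of probe sets, other scalings, an intensity trend with robust variance, the compared groups alone, the 18S pair, an atrial covariate and leaving out each array.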

Additional observations from a re-analysis of the deposited data

Results flagged for a closer look

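The arrays of the groups lay in opposite order for Ndufs1 at the 2 ages. All 3 transgenic adult arrays lay below all 3 control adult arrays (11.54 to 11.69 against 12.12 to 12.42), while all 3 transgenic newborn arrays lay above both control newborn arrays (11.85 to 11.87 against 11.80 and 11.82). The adult difference minus the newborn difference was -0.75, and its limma adjusted p of 0.0735 did not pass. The newborn difference alone, 0.05, was smaller than its SE of 0.12, which rests on a spread shared with the adult arrays. The SDs of Ndufs1 among newborns were smaller, 0.02 in control and 0.01 in transgenic hearts.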

How the results depend on the processing

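The median differences of the 44 genes kept their sign under each of the alternatives run. Without 1 array they ran from -0.28 to -0.18 in adults, -0.08 to -0.03 in newborns, -0.22 to -0.11 for the difference between ages, 0.40 to 0.48 for age in controls and 0.23 to 0.32 for age in transgenic hearts. A common array median moved the age medians to 0.61 and 0.43, and the cause is its own construction, since it shifts all genes. The adult count of 4 was 7 with probe sets averaged per gene, 0 in a fit of the compared groups alone, 10 with the high-18S pair as a factor, 7 without that pair, 0 with the atrial covariate and 1 to 4 without 1 array. The count of 0 for the difference between ages became 1 with the 18S factor and 1 without the pair, and was 0 to 1 without 1 array. The count of 25 for age in controls was 16 with the atrial covariate, 16 without control adult replicate 1 and 32 without control adult replicate 3. Fits without a control newborn array leave 1 array in that group, and their counts are not given. For this comparison 16 to 32 is therefore not the full range without 1 array. The count of 14 for age in transgenic hearts was 30 with a common median, 27 with the 18S factor (26 higher, 1 lower), 25 without the pair, 0 with the atrial covariate and 5 to 20 without 1 array. Counts both fell and rose when arrays were left out, and the causes were not tested. With the 18S factor 28.5% of all genes were called higher with age in transgenic hearts. For the atrial covariate, averaged probe sets, the replicate block and fits without 1 array, the share of all genes called is not given here. In adults Ndufs1 was called in 20 of 22 alternatives, Ndufs7 in 19, Ndufv1 in 17 and Ndufaf4 in 7. With the replicate block 3 genes were called in adults, since Ndufaf4 had an adjusted p of 0.0578, and the counts for age were 28 in controls and 14 in transgenic hearts. A fit of the compared groups alone gives no value for the difference between ages.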
